A study of Mus musculus with 3 samples.

Results

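The genes described here are 44 genes of programmed cell death and of autophagy, chosen by symbol from the 49585 genes that each deposited table lists. They comprise 23 apoptosis genes and 21 autophagy genes, which were kept apart. Each symbol was found once, and all 44 passed the filter on low counts. The tables came from 2 libraries of midbrain labelled FGR and 1 library of wild-type (WT) midbrain, all from C57BL/6 mice at postnatal day 3, and the libraries were made from total RNA extracted with Trizol. The labels give FGR as the genotype of the first group without spelling it out or naming an allele, and do not say whether its libraries came from separate animals. With 1 WT library there was no measured spread among WT mice. The p-values rest on the spread between the FGR libraries, and mostly on variance pooled over genes. The fit had 1 residual and 13.02 prior degrees of freedom.

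Apoptosis in neurons runs mainly through the mitochondrion. BH3-only proteins sense damage or loss of trophic support and free the effectors BAX and BAK from anti-apoptotic BCL2 proteins, after which cytochrome c lets APAF1 activate caspase-9 and then the effector caspases. The developing brain removes many surplus neurons in this way around birth. Autophagy wraps cytoplasm in a membrane that is marked by lipid-bound ATG8 proteins and delivers it to lysosomes, and neurons that cannot carry it out degenerate.

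Most of these genes stood close to their WT level in FGR midbrain. By edgeR's quasi-likelihood test, adjusted over all genes, Bcl2l1 was the 1 apoptosis gene that rose, 0 apoptosis genes fell, 2 autophagy genes fell (Map1lc3a and Atg12) and 0 autophagy genes rose. A gene is called here when its Benjamini-Hochberg adjusted p was under 0.05. Over all 25561 tested genes 1087 were called, or 4.25%, with 1.66% called higher and 2.59% lower in FGR. Among tested genes at a mean of at least 1 CPM (counts scaled to the library's total) the share called was 5.62%. The counts of 1 of 23 and 2 of 21 are near that background. At an unadjusted p under 0.05 there were 7 of 23 apoptosis and 5 of 21 autophagy genes, against 18.3% of all tested genes and 22.6% of those at a mean of at least 1 CPM. DESeq2 called 0 apoptosis genes and 1 autophagy gene (Atg12), and limma-voom called 0 and 2. None of the 44 differed from WT by 1.5-fold, a size that 5.55% of genes at a mean of at least 1 CPM exceeded. Estimates lay within 1.2-fold of WT for 73.9% of the apoptosis genes and 90.5% of the autophagy genes. Among tested genes at a mean of at least 1 CPM that share was 74.1%. The median log2 fold change was 0.05 over the apoptosis genes and 0.04 over the autophagy genes, against 0.01 over all tested genes. WT stood outside the range of the FGR pair for 17 of 23 apoptosis genes and 19 of 21 autophagy genes, and for 76.7% of all tested genes (38.5% with both FGR libraries higher than WT and 38.2% with both lower).

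**Figure D1:**
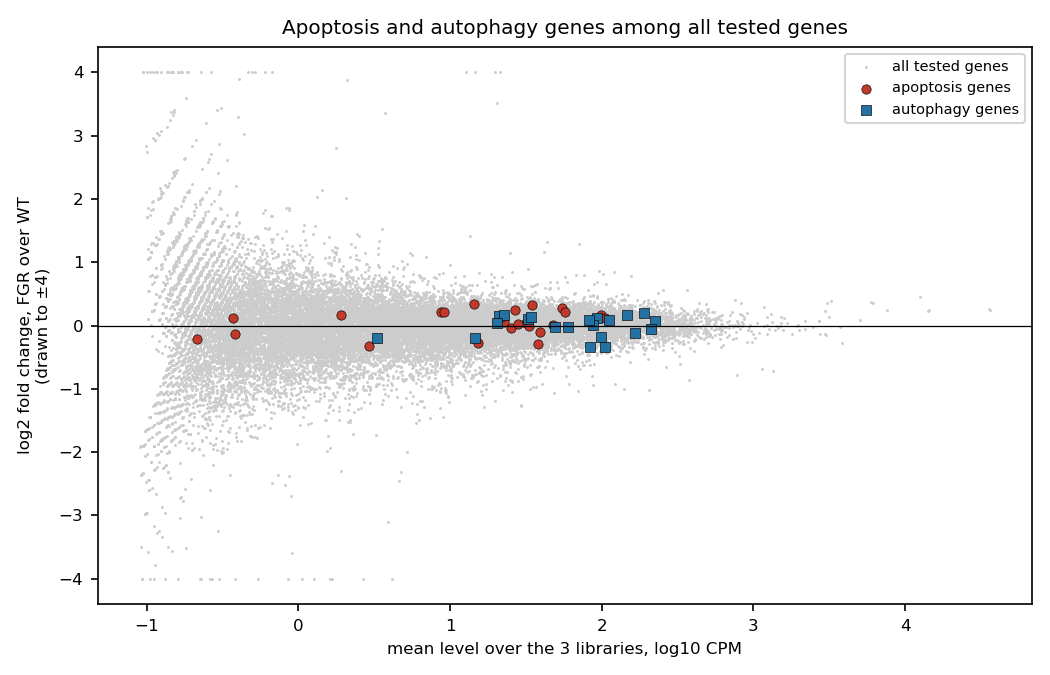
Log2 fold change of FGR over WT (vertical axis) against the mean level in log10 CPM (horizontal axis) for all 25561 tested genes (grey), the 23 apoptosis genes (circles) and the 21 autophagy genes (squares); values beyond 4 are drawn at the edge. The coloured points lie along the zero line within 1.5-fold of WT, and most stand at high levels where the cloud of all genes is narrow.

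Total counts were 58444481 and 46240262 in the FGR libraries and 52874311 in WT. The 3 libraries also differed in marker genes of regions and of other cell types. Of 10 hypothalamus and ventral forebrain markers 9 fell, with a summed level of 3.62 and 3.92 CPM in FGR and 53.9 CPM in WT, and Nkx2-4 and Six6 had 0 counts in both FGR libraries. Of 10 midbrain markers, none of them at 0, 5 rose and 1 fell, and their sum was 659 and 597 CPM in FGR and 608 CPM in WT. Of 8 hindbrain markers 6 rose (45.7 and 38.5 CPM in FGR, 4.59 CPM in WT). Of 9 meningeal fibroblast markers 7 fell (361 and 589 CPM in FGR, 919.6 CPM in WT), of 10 microglia markers 3 fell (123 and 132 CPM in FGR, 169.5 CPM in WT) and of 7 astrocyte markers 3 fell (895 and 1017 CPM in FGR, 1142 CPM in WT). Of 7 oligodendrocyte lineage markers 3 fell (301 and 311 CPM in FGR, 384 CPM in WT) and of 6 dividing cell markers 1 fell (80.6 and 113 CPM in FGR, 122.5 CPM in WT). Of the 6 erythroid markers tested 5 rose (308 and 339 CPM over the list in FGR, 209.6 CPM in WT). Of 7 neuron markers 0 were called by edgeR, DESeq2 or limma-voom and 3 had an unadjusted p under 0.05 (4514 and 4380 CPM in FGR, 4595 CPM in WT). The rises and falls above are edgeR calls. DESeq2 called 3 hypothalamus, 1 microglia, 2 astrocyte and 3 oligodendrocyte markers lower, and 0 meningeal and 0 dividing cell markers. It called 2 hindbrain, 4 erythroid and 2 midbrain markers higher and 1 midbrain lower. In limma-voom 9 hypothalamus, 8 meningeal, 4 microglia, 4 astrocyte, 3 oligodendrocyte and 2 dividing cell markers were lower. It called 4 hindbrain, 4 erythroid and 5 midbrain markers higher and 1 midbrain lower. In bulk tissue, fewer cells of a type and less RNA per cell cannot be told apart. With 1 WT library, a difference in the region dissected and a difference of genotype cannot be told apart either. The part of these markers in the results below was not tested.

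Levels of different genes were compared as RPKM, the reads of a gene scaled for its length and for the library's total. RPKM carries no TMM scaling, so differences between libraries in RPKM can depart from those in CPM. Among the apoptosis genes, Mcl1 was the most abundant, at 31.6 and 31.4 RPKM in FGR and 29.7 RPKM in WT, and Bax followed at 19.98 RPKM in both FGR libraries and 20.05 RPKM in WT. At the other end, Pmaip1, Fas, Bik and Casp6 stayed under 0.4 RPKM in every library. Among the autophagy genes, Gabarapl1 led with 78.3 and 79.5 RPKM in FGR and 88.3 RPKM in WT, and Tfeb was lowest with 0.513 and 0.584 RPKM in FGR and 0.647 RPKM in WT. Map1lc3a, one of the called genes, was also near the top, at 64.95 and 63.65 RPKM in FGR and 83.4 RPKM in WT.

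**Figure D2:**
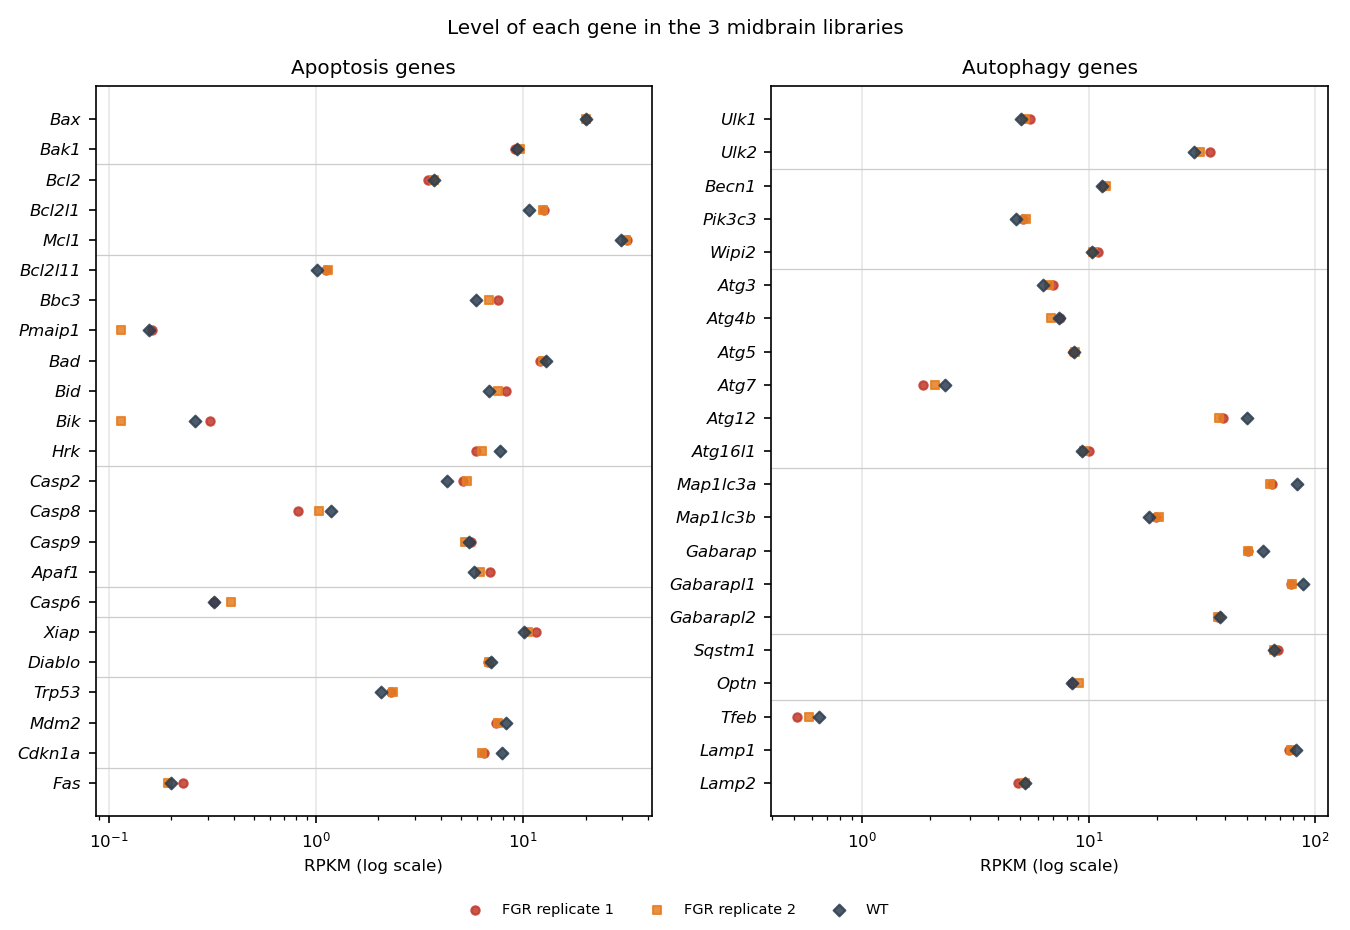
RPKM (horizontal axis, log scale) of each apoptosis gene (left) and autophagy gene (right) in FGR replicate 1 (circles), FGR replicate 2 (squares) and WT (diamonds), with thin lines between functional roles. The symbols of a gene mostly overlap; for Map1lc3a and Atg12 the WT diamond stands to the right of both FGR symbols, and for Bcl2l1 it stands to the left.

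Bax and Bak1 encode the effectors that open the outer mitochondrial membrane. Bax (ENSMUSG00000003873.11) had 1840 and 1456 counts in FGR and 1671 counts in WT, or 31.7 and 31.9 CPM in FGR and 31.0 CPM in WT, a log2 fold change of 0.03 ± 0.09 (SE). Bak1 was at 22.05 and 23.5 CPM in FGR and 21.96 CPM in WT. Neither gene was called, and the 95% interval for Bax ran from -0.16 to 0.23 on the log2 scale.

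Of the anti-apoptotic genes, Bcl2l1, which encodes BCL-XL, the main BCL2 protein that keeps young neurons alive, rose. Bcl2l1 (ENSMUSG00000007659.18) had 3362 and 2631 counts in the FGR libraries and 2574 counts in WT, or 58.0 and 57.6 CPM in FGR and 47.8 CPM in WT. Both FGR libraries stood above WT and differed from each other by less than 1 CPM. Its FGR mean was 57.8 ± 0.286 CPM (SD, n = 2). Relative to WT it was 1.21-fold higher (log2 fold change 0.27, SE 0.07; edgeR adjusted p = 0.0368). The call did not hold under 4 of 8 alternatives, over which the adjusted p ranged from 0.0256 to 0.340, and DESeq2 gave the highest of these. Mcl1, which encodes a short-lived BCL2 protein, had 6315 and 4961 counts in FGR and 5368 counts in WT, and its log2 fold change was 0.12 ± 0.07 (edgeR adjusted p = 0.348). Bcl2 itself was at 32.0 and 34.3 CPM in FGR and 33.2 CPM in WT, so that WT lay between the FGR libraries. Haemoglobin and other erythroid markers, whose sum is given above, moved in the same direction as Bcl2l1, which red cell precursors also use for survival. Hindbrain markers and some midbrain markers rose as well. The part of any of these in the Bcl2l1 result was not tested.

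The BH3-only genes showed no shared direction, with 3 of 7 higher in both FGR libraries, 2 lower in both and WT between the FGR libraries for 2. Over all tested genes, 38.5% were higher in both and 38.2% lower in both. Hrk, a BH3-only gene of neurons deprived of growth factor, had 1955 and 1665 counts in FGR and 2319 counts in WT, and was at 33.7 and 36.4 CPM in FGR and 43.1 CPM in WT. Its log2 fold change was -0.30 ± 0.08 and it missed the threshold (edgeR adjusted p = 0.0645). Hrk passed with library totals alone (0.0289), without a filter on low counts (0.0177) and in a robust fit (0.046). Under the other tested alternatives it stayed uncalled, at an adjusted p from 0.0539 to 0.3585, the highest in DESeq2. Bbc3, which encodes the p53-induced protein PUMA, was at 16.2 and 14.8 CPM in FGR and 12.3 CPM in WT (edgeR adjusted p = 0.201). Bid, which links death receptors to mitochondria once it is cut by caspase-8, was at 29.5 and 27.0 CPM in FGR and 23.9 CPM in WT (edgeR adjusted p = 0.235). Both genes were higher in each FGR library than in WT. Their unadjusted edgeR p was under 0.05 (0.0272 and 0.0372), but neither was called after adjustment over all tested genes. Bad, the partner of BCL-XL that survival kinases inactivate, was the most abundant of this group per length, with 12.1 and 12.5 RPKM in FGR and 12.9 RPKM in WT, and 1417 and 1162 counts in FGR against 1372 counts in WT. Bcl2l11, which encodes BIM, was at 9.07 and 9.28 CPM in FGR and 7.93 CPM in WT (edgeR adjusted p = 0.496). Pmaip1 and Bik had 14 to 25 and 5 to 17 counts, too few to show a difference of this size.

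**Figure D3:**
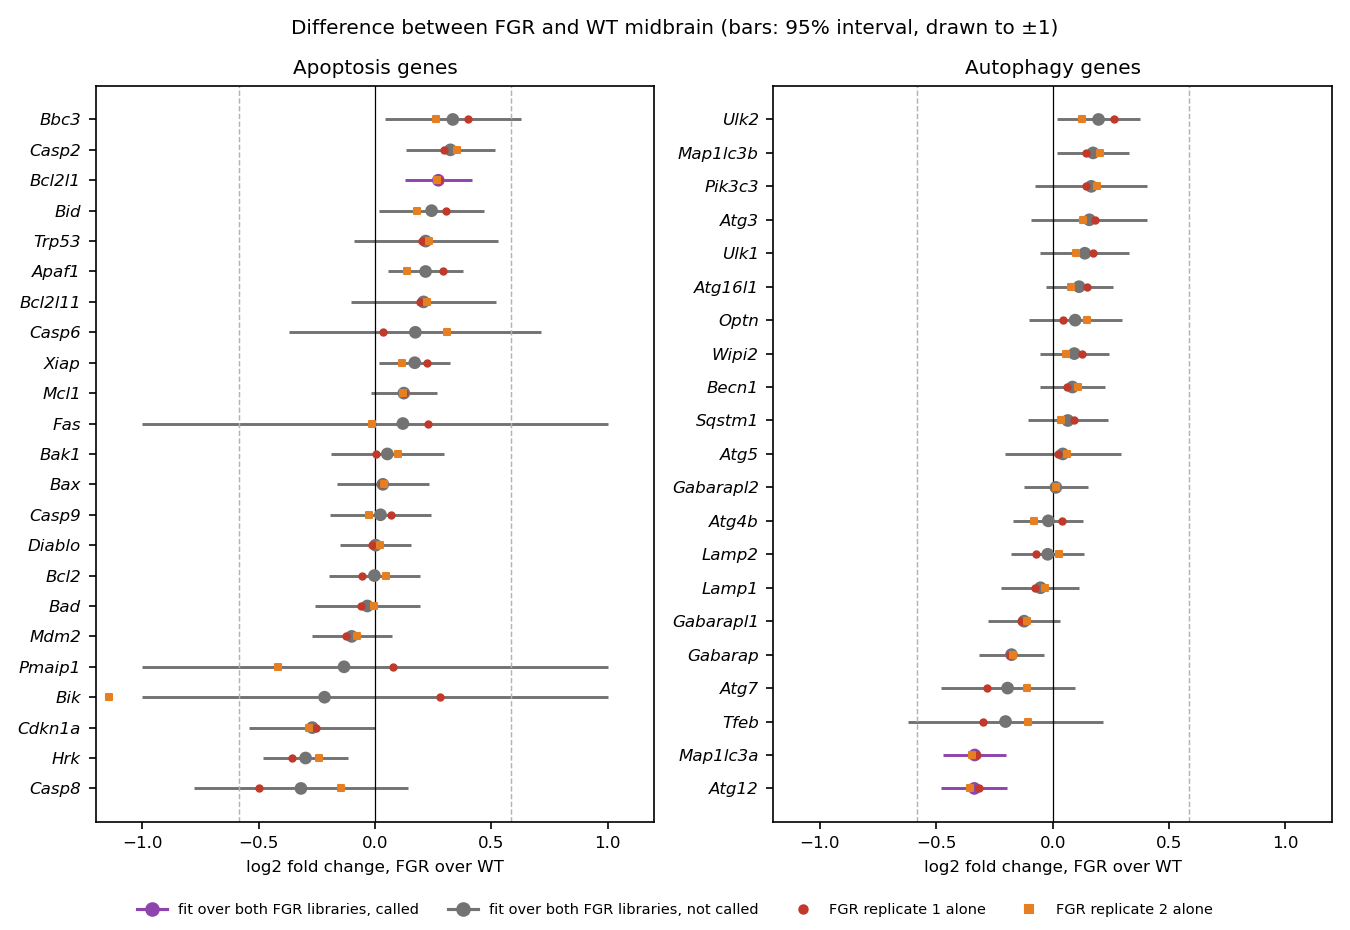
Log2 fold change of FGR over WT for each apoptosis gene (left) and autophagy gene (right): large circles with bars give the edgeR estimate with its 95% interval, small circles and squares give FGR replicates 1 and 2 alone, and dashed lines mark 1.5-fold. Purple marks the called genes Bcl2l1, Map1lc3a and Atg12; the intervals of 17 of 23 apoptosis genes and 20 of 21 autophagy genes lie inside the dashed lines.

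Among the caspases, Casp2, which encodes an initiator caspase activated after DNA damage, lay just outside the threshold. It had 2122 and 1742 counts in FGR and 1605 counts in WT, or 36.6 and 38.1 CPM in FGR and 29.8 CPM in WT. Its log2 fold change was 0.32 ± 0.09 (edgeR adjusted p = 0.0543). Casp2 passed without a filter on low counts (0.0365) and in a robust fit (0.0376). Under the other tested alternatives it stayed uncalled, at an adjusted p from 0.0518 to 0.317, the highest in DESeq2. Apaf1, the scaffold of the apoptosome, had 3642 and 2574 counts in FGR and 2758 counts in WT. It was at 62.8 and 56.3 CPM in FGR and 51.2 CPM in WT (edgeR adjusted p = 0.132). Both genes were higher in each FGR library than in WT, and neither was called. Casp9, which APAF1 activates, was at 29.2 and 27.4 CPM in FGR and 27.8 CPM in WT. Casp8, the initiator caspase of death receptors, was at 2.38 and 3.04 CPM in FGR and 3.36 CPM in WT, and Fas, a death receptor gene, had 24 and 16 counts in FGR and 19 counts in WT. Casp6, an effector caspase linked to axon pruning, had 105 and 100 counts in FGR and 95 counts in WT.

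Xiap, which encodes a direct caspase inhibitor, had 6210 and 4541 counts in FGR and 4935 counts in WT, a log2 fold change of 0.17 ± 0.07 (edgeR adjusted p = 0.209). Diablo, whose product is released from mitochondria to block XIAP, was at 47.0 and 48.2 CPM in FGR and 47.5 CPM in WT. Trp53, the p53 gene, was at 9.40 and 9.58 CPM in FGR and 8.16 CPM in WT (edgeR adjusted p = 0.472). Mdm2, a p53 target that encodes the ubiquitin ligase of p53, had 2183 and 1775 counts in FGR and 2205 counts in WT, and Cdkn1a, the p53 target that encodes the cell cycle inhibitor p21, was at 14.5 and 14.2 CPM in FGR and 17.3 CPM in WT (edgeR adjusted p = 0.277). Trp53 was thus higher, and both of these targets lower, in each FGR library than in WT, without a call for any of them. Not all p53 targets moved as Mdm2 and Cdkn1a did. Bbc3, described above, exceeded its WT level in each FGR library. The further p53 list taken up below has 25 genes, and holds the p53 relatives Trp63 and Trp73 and the p53 regulator Mdm4 beside targets. Of these 25 genes, 13 lay above WT in each FGR library and 7 lay under it in each. For the remaining 5, WT stood between the FGR pair. Over all tested genes, 38.5% lay above WT in each FGR library and 38.2% lay under it in each.

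The autophagy genes that fell were 1 of the 5 ATG8 genes, which encode ubiquitin-like proteins of the autophagosome membrane, and 1 of the 6 genes of the conjugation machinery. Map1lc3a, the ATG8 gene that encodes LC3A (ENSMUSG00000027602.9), had 4483 and 3476 counts in FGR and 5206 counts in WT, or 77.3 and 76.0 CPM in FGR and 96.7 CPM in WT. Both FGR libraries stood below WT and differed from each other by less than 2 CPM. Map1lc3a fell to a mean of 76.7 ± 0.880 CPM in FGR (SD, n = 2), with a log2 fold change of -0.34 ± 0.06 (edgeR adjusted p = 0.00847). The call held under 7 of 8 alternatives and was lost in DESeq2 (adjusted p = 0.0579; range over the alternatives 1.16e-04 to 0.0579). Atg12, which encodes the ubiquitin-like protein that is joined to ATG5 to form the LC3 ligase (ENSMUSG00000032905.4), had 5698 and 4369 counts in FGR and 6588 counts in WT. It was at 98.2 and 95.6 CPM in FGR and 122 CPM in WT. Here too both FGR libraries stood below WT, and the gap between them was small beside that to WT. Atg12 fell by 0.34 on the log2 scale (SE 0.07; edgeR adjusted p = 0.0106) and was called under 8 of 8 alternatives (adjusted p from 5.90e-05 to 0.0399). The part of the region and cell type markers given above in the falls of Map1lc3a and Atg12 was not tested.

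None of the other ATG8 genes was called. Map1lc3b, which encodes LC3B, the form most used as a marker of autophagosomes, was at 150.2 and 156 CPM in FGR and 136 CPM in WT, a log2 fold change of 0.17 ± 0.07 (edgeR adjusted p = 0.213). Of the GABARAP branch, Gabarap was at 93.96 and 94.97 CPM in FGR and 107 CPM in WT (edgeR adjusted p = 0.154), Gabarapl1, the most abundant ATG8 gene, had 9209 and 7397 counts in FGR and 9394 counts in WT (edgeR adjusted p = 0.406), and Gabarapl2 was at 87.9 and 88.1 CPM in FGR and 87.1 CPM in WT. The RPKM of all 5 ATG8 genes summed to 251 and 252 in FGR and 287 in WT. Their CPM, which is TMM-scaled and not divided by length, summed to 568 and 577 in FGR and 601 in WT. Map1lc3a made up 25.9% and 25.3% of the RPKM sum in FGR and 29.0% in WT, whereas Map1lc3b made up 7.90% and 8.17% in FGR and 6.41% in WT. These shares depend on the length of each gene. By CPM, Map1lc3b stood above Map1lc3a in every library.

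In the rest of the conjugation machinery, Atg5, the partner of Atg12, was at 20.3 and 20.8 CPM in FGR and 19.9 CPM in WT. Atg16l1, which places the LC3 ligase on the membrane, was at 97.6 and 93.1 CPM in FGR and 88.2 CPM in WT, and Atg3, which encodes the enzyme that hands LC3 to its lipid, was at 22.1 and 21.3 CPM in FGR and 19.5 CPM in WT. Atg7, the activating enzyme of both conjugation systems, was at 13.1 and 14.7 CPM in FGR and 15.9 CPM in WT, and Atg4b, the protease that trims LC3, was at 62.2 and 57.2 CPM in FGR and 60.5 CPM in WT. None of these 5 genes was called, and Atg7 was the one among them with both FGR libraries below WT.

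Ratios of read counts between genes of the same library do not depend on the scaling between libraries. The pairs were chosen after their values had been seen, and the intervals cover counting error only. The ratio of Map1lc3a to Map1lc3b was 0.515 (95% exact binomial interval 0.496 to 0.534) and 0.486 (0.467 to 0.506) in FGR and 0.711 (0.686 to 0.737) in WT. Atg12 to Atg5 was 4.85 (4.55 to 5.17) and 4.59 (4.28 to 4.93) in FGR and 6.14 (5.76 to 6.56) in WT. For both ratios the FGR intervals overlapped each other and lay below that of WT. Bcl2l1 to Bax was 1.83 (1.73 to 1.94) and 1.81 (1.69 to 1.93) in FGR and 1.54 (1.45 to 1.64) in WT, so that here the FGR intervals lay above that of WT. By contrast Bcl2 to Bax was 1.01 and 1.08 in FGR and 1.07 in WT, and Lamp1 to Lamp2 was 4.40 and 4.23 in FGR and 4.40 in WT. Pairs without a called gene were also set apart from WT. The ratio of Mdm2 to Trp53 was 4.01 (3.645 to 4.41) and 4.05 (3.65 to 4.51) in FGR and 5.02 (4.53 to 5.58) in WT. Gabarap to Gabarapl2 was 1.07 (1.03 to 1.11) and 1.08 (1.03 to 1.13) in FGR and 1.23 (1.18 to 1.27) in WT. Separate intervals were thus not particular to the called genes.

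**Figure D4:**
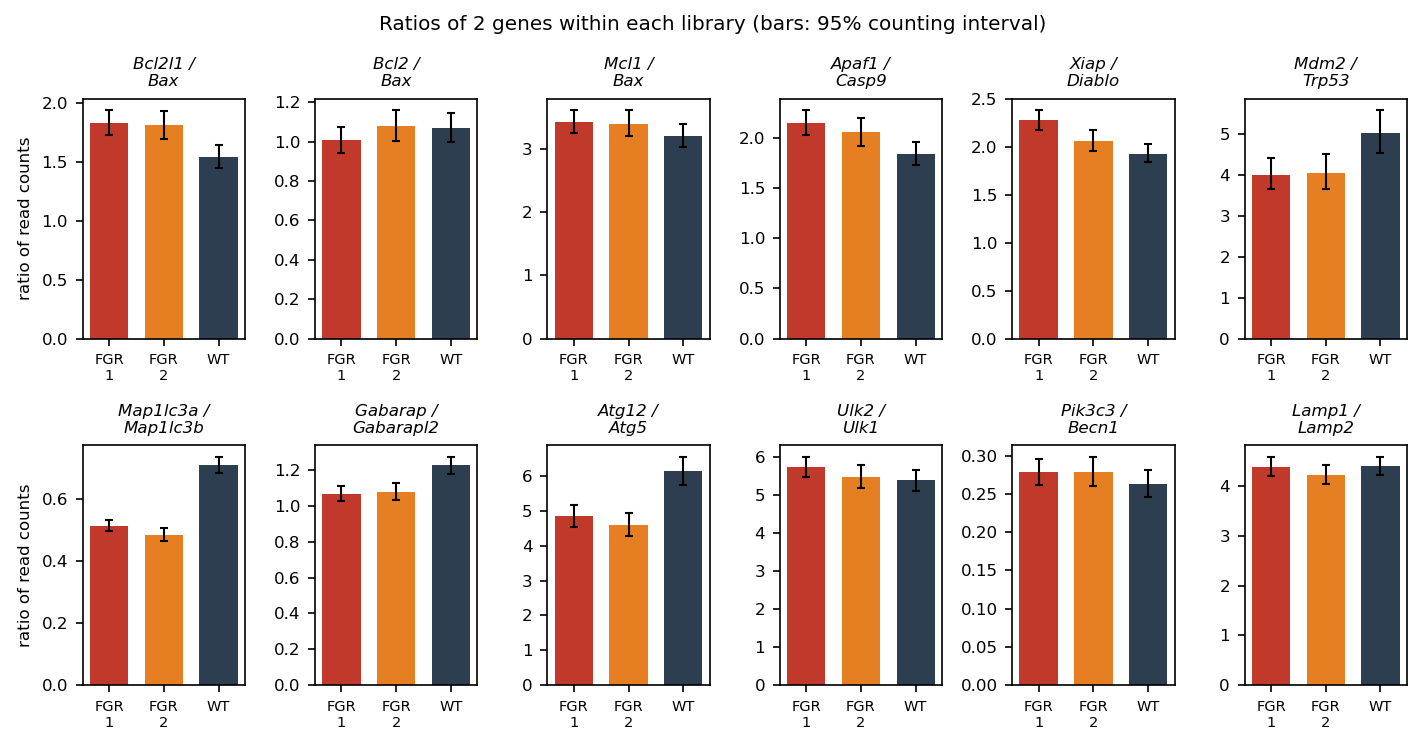
Ratio of the read counts of 2 genes within each library (vertical axis, from 0) for 12 pairs, in FGR replicates 1 and 2 and in WT; error bars are 95% exact binomial intervals for counting error. Both FGR intervals lie below that of WT for Map1lc3a to Map1lc3b, Atg12 to Atg5, Mdm2 to Trp53 and Gabarap to Gabarapl2. They lie above it for Bcl2l1 to Bax.

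The genes that start and nucleate autophagosomes were not called. Ulk2, one of the kinases that start autophagy, had 11977 and 8581 counts in FGR and 9257 counts in WT (log2 fold change 0.20 ± 0.08; edgeR adjusted p = 0.215), and Ulk1, which mTORC1 restrains in fed cells, was at 36.1 and 34.3 CPM in FGR and 32.0 CPM in WT. Becn1, which encodes the regulator Beclin of the lipid kinase VPS34, had 4806 and 3909 counts in FGR and 4272 counts in WT. Pik3c3, the VPS34 gene, was at 23.1 and 23.9 CPM in FGR and 20.9 CPM in WT, and Wipi2, which reads the lipid that VPS34 makes, was at 117 and 111 CPM in FGR and 107 CPM in WT. Each of the 5 had a higher CPM in both FGR libraries than in WT, as did 38.5% of all tested genes, with log2 fold changes of 0.08 to 0.20, and none passed the test.

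Of the cargo receptors, Sqstm1, which encodes p62 and carries ubiquitin-tagged cargo, had 13488 and 10238 counts in FGR and 11747 counts in WT, and Optn, a receptor for damaged mitochondria and aggregates, was at 32.0 and 34.4 CPM in FGR and 31.0 CPM in WT (edgeR adjusted p = 0.731 and 0.650). Lamp1 and Lamp2, which encode the main membrane proteins of lysosomes, were at 207 and 213 CPM (11991 and 9735 counts) in FGR against 218 CPM (11715 counts) in WT, and at 47.0 and 50.4 CPM in FGR against 49.4 CPM in WT. Tfeb, the transcription factor that raises lysosome and autophagy genes, had 170 and 153 counts in FGR and 194 counts in WT, and its interval from -0.62 to 0.22 on the log2 scale did not leave out a 1.5-fold fall.

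TFEB binds the E-box letters CACGTG, which read the same on both strands. The letters were searched in RefSeq promoter windows (build GRCm38.p6, 250 bases before to 50 bases after a start), in which 37 of the 44 genes were found. They stood in 4 of 18 windows of autophagy genes (22.2%: Atg3, Atg5, Atg7 and Lamp1), in 4 of 30 windows of apoptosis genes (13.3%: Bax, Bbc3, Fas and Trp53) and in 8.82% of 17473 windows of tested genes. The longer CLEAR element, CACGTG with GT before it and AC after it, which also reads the same on both strands, stood in 0 of 18 autophagy and 0 of 30 apoptosis windows, against 0.54% of windows of tested genes. Lamp1 and Bax are shown as the autophagy and the apoptosis gene with the most copies, and Atg3 as the conjugation gene with more than 1, with the letters CACGTG in capitals. Lamp1 is at chr8:13158911-13159210 (plus strand) with 4 copies, Atg3 at chr16:45158579-45158878 (plus strand) with 2 and Bax at chr7:45466849-45467148 (minus strand) with 2.
Lamp1: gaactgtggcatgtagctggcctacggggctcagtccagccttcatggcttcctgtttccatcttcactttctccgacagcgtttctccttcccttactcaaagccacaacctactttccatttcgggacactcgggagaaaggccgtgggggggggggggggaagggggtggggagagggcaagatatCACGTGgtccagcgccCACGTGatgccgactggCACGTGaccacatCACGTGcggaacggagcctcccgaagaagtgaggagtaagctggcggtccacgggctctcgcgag
Atg3: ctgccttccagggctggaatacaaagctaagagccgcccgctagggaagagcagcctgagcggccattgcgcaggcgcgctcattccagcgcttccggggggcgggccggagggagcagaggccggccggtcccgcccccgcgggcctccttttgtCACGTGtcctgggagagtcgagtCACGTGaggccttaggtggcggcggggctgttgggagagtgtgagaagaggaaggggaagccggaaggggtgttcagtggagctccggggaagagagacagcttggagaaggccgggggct
Bax: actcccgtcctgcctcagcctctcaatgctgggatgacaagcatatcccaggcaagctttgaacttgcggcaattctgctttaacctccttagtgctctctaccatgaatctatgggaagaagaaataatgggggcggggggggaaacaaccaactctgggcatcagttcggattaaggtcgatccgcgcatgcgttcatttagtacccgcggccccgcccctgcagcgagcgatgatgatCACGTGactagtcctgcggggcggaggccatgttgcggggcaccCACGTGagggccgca
None of these 8 genes was called, and a match in a window is a description of its letters and no evidence of binding.

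Around these genes stood 9 further lists of related genes, with 163 genes reported here, of which 159 were tested. Of these 1 rose and 2 fell; since the counts leave out 1 gene, they are not read against the background of 4.25%. Trp53inp1, a p53 target that takes part in both apoptosis and autophagy, was the 1 call among the 25 genes of the further p53 list. It was at 40.5 and 43.4 CPM in FGR and 33.6 CPM in WT (edgeR adjusted p = 0.0490). That call was lost under 5 of 8 alternatives (adjusted p from 0.0255 to 0.310). The median of the p53 target list was 0.07 on the log2 scale.

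Of 30 further lysosome genes 2 fell and 0 rose. Gaa, the lysosomal glucosidase that degrades glycogen, was at 138 and 142 CPM in FGR and 176 CPM in WT, a log2 fold change of -0.33 ± 0.07 (edgeR adjusted p = 0.0159; called under 7 of 8 alternatives, and at 0.0610 under a stricter filter on low counts). Ctsa, a lysosomal carboxypeptidase that protects other lysosomal enzymes, was at 45.2 and 49.8 CPM in FGR and 58.3 CPM in WT (edgeR adjusted p = 0.0403, lost under 3 of 8 alternatives). The list's median was -0.07, and 19 of its 30 genes were lower in both FGR libraries, as were 38.2% of all tested genes. Microglia, which are rich in lysosomes, had lower markers in FGR as given above, and their part in these falls was not tested. In the other 7 lists 0 of the genes reported here were called by edgeR, DESeq2 or limma-voom. At an unadjusted p under 0.05, which 18.3% of all tested genes reached, there were 2 of 13 further BCL2 family genes, 2 of 20 further caspase, apoptosome and IAP genes, 0 of 17 death receptor pathway genes, 4 of 19 initiation and nucleation genes, 0 of 6 conjugation genes, 7 of 17 receptor and mitophagy genes and 4 of 12 fusion genes.

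**Figure D5:**
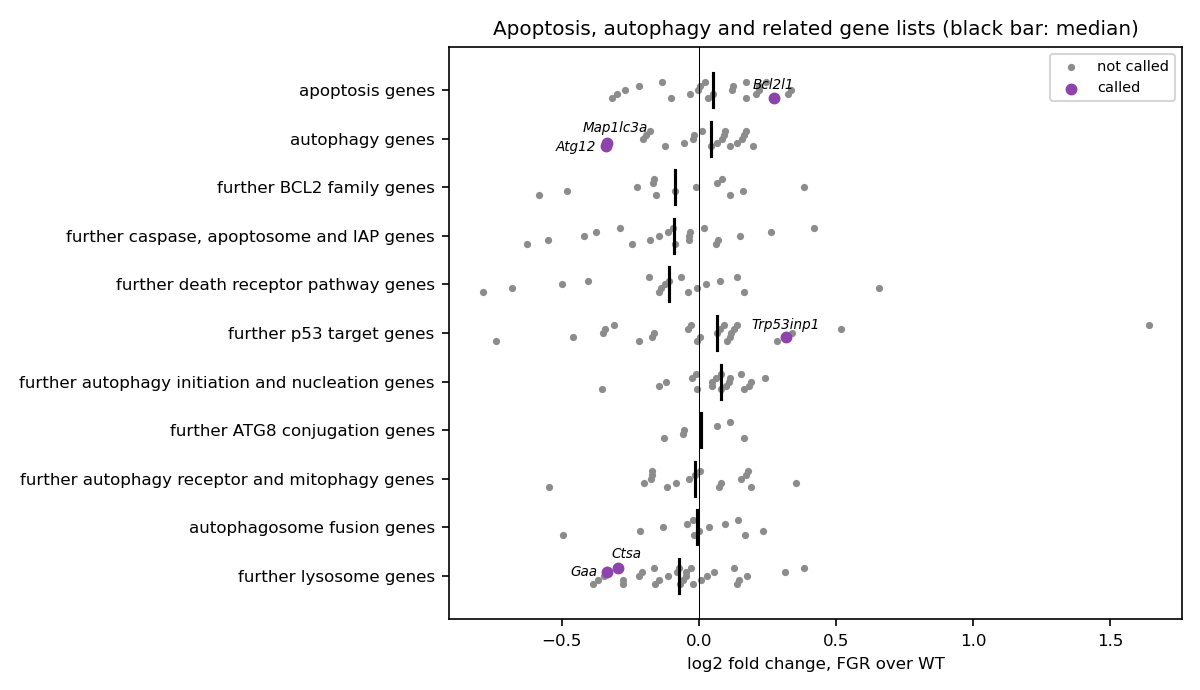
Log2 fold change of FGR over WT (horizontal axis) for every tested gene reported here among the apoptosis and autophagy genes and 9 further lists (rows), with called genes in purple and named and the median of each list as a black bar. The medians lie between -0.11 and 0.08, and each row holds at most 2 called genes.

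The size of change that could have been seen depended on the counts. The standard error of the log2 fold change ran from 0.06 to 0.20 for the autophagy genes and from 0.07 to 0.81 for the apoptosis genes, the highest being that of Bik. The 95% interval lay within 1.5-fold of WT for 17 of 23 apoptosis genes, the exceptions being Bbc3, Pmaip1, Bik, Casp8, Casp6 and Fas, and for 20 of 21 autophagy genes, the exception being Tfeb. These intervals assume that the lone WT library varied like the FGR libraries. The share of all tested genes with an interval within 1.5-fold was not worked out. Exons of 13 of the 44 genes overlapped a gene on the other strand in GENCODE M21, and no source used here says if strand was read in counting, so reads of such pairs cannot be told apart. The overlap took 43.9% of the exon bases of Becn1 (with Cntd1), 28.3% of Gabarapl1 and 21.5% of Diablo. It took 20.5% of those of Bad, 18.2% of Bak1 and 17.7% of Bid (with Bcl2l13). On the same strand, Bax shared 12.2% of its exon bases with Gm45808, which had 364 and 293 counts in FGR and 354 counts in WT. Diablo shared 19.35% with Gm49027, which had 0 counts in each library. None of the called Bcl2l1, Map1lc3a, Atg12, Trp53inp1 and Gaa overlapped another gene's exons, whereas Ctsa shared 10.5% of its exon bases with Pltp, which had 786 and 830 counts in FGR and 1224 counts in WT. Pseudogene copies at 95% identity or more over at least 200 bases were found for 4 of the 44 genes, and the counts listed for them came to over 1 percent of the gene's own for Gabarapl2 alone (2.40% at Gm3724).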

How the data were processed

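Each of the 3 libraries had a deposited table without a header that lists, per gene, an Ensembl identifier, a symbol, a read count, a length in bases and an RPKM value. The authors' counts are raw, since they are whole numbers with a different total in each library (46240262 to 58444481). The RPKM values the authors deposited equalled count over length and total to within 0.001 percent and were used for levels of different genes. Per the submitters' processing notes, HISAT2 was used. The aligner's release, the build and the counter were not given in the sources used here.

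The test was edgeR 4.0.16 under R 4.3.3 (low counts removed by filterByExpr at 10, TMM scaling, two-sided quasi-likelihood F test, Benjamini-Hochberg over 25561 genes). It had 1 residual degree of freedom, from the FGR pair, and 13.02 prior degrees of freedom from variance pooled over genes. CPM values are TMM-scaled. Standard errors are the log2 fold change over the square root of F. The 44 genes, the further lists and the markers were chosen with earlier results of these data known, so no test was made over a list. All 44 genes are described; counts per library are given for called genes and for the most abundant gene of each role, and further lists are named by their called genes. From the further lists 1 gene is not reported here and is left out of their counts. The code was tested on simulated data. Alternatives were scaling, filters, DESeq2 1.42.0, limma-voom (limma 3.58.1), a robust fit, removal of the 7SL genes Rn7s1 and Rn7s2, and each FGR library left out. The 7SL genes took 7.19% and 7.87% of the counts in FGR and 6.48% in WT.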

Additional observations from a re-analysis of the deposited data

How the results depend on the processing

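No paired analysis was possible because FGR and WT share fewer than 2 replicate numbers. Over all genes, 1087 calls became 2057 without a filter on low counts, 301 under a stricter filter (mean of at least 1 CPM) and 357 in DESeq2. Calls were 424 higher and 663 lower (39.0% higher), against 332 and 1027 (24.4% higher) with library totals alone, a scaling that shifted the median of all genes by -0.04 on the log2 scale. The 1 apoptosis call became 3 without a filter and 3 in a robust fit (Bcl2l1 and Casp2 higher, Hrk lower), and 0 under the stricter filter, in DESeq2 and in limma-voom; with library totals alone the 1 call was Hrk, not Bcl2l1. The 2 autophagy calls became 1 in DESeq2. The median log2 fold change of the apoptosis genes was 0.014 with library totals alone and 0.082 under the stricter filter, and 0.04 to 0.08 with each FGR library left out. That of the autophagy genes was 0.0035 with library totals alone, 0.028 without a filter, 0.033 without Rn7s1 and Rn7s2 and 0.028 to 0.039 with each FGR library left out, 1 library against 1 with no test. Uncalled genes near 0 changed sign: with library totals alone Bax (-0.0054), Casp9 (-0.015), Diablo (-0.037) and Gabarapl2 (-0.026), without a filter Diablo (-0.012) and Gabarapl2 (-0.0019), and Diablo under the stricter filter (-0.0042), DESeq2 size factors (-0.00097), DESeq2 (-0.0010) and without Rn7s1 and Rn7s2 (-0.0071). Leaving out 1 FGR library also turned the sign of uncalled genes: without FGR replicate 1 Bcl2 (0.039), Casp9 (-0.034), Fas (-0.022) and Lamp2 (0.018), and without FGR replicate 2 Pmaip1 (0.077), Bik (0.28), Diablo (-0.014) and Atg4b (0.039). The cause of these moves was not tested. No called gene changed sign under any of these settings. The counts set the limits: genes under about 0.4 RPKM could not show changes of the size seen here. The limit also reached genes above that level. Tfeb and Casp8 had standard errors of 0.20 and 0.21, and Bbc3, at a log2 fold change of 0.33 (SE 0.14), was not called.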
